A study of Mus musculus with 18 samples.

Results

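Translation initiation and elongation factors are followed here through 10 genes picked by name: Eef1a1, Eef1b2, Eef1d, Eef1g, Eef2 and Eif5a, which act mainly in elongation, and Eif1, Eif4g1, Eif4b and Eif3a, which act in initiation. All 10 names were found among the 47643 genes of the table, with 84 of its 115125 transcript entries. RNA came from 5G6GR mouse embryonic stem (ES) cells, a single line known for carrying an inducible Gata6 fusion, grown without feeder cells in serum with leukemia inhibitory factor, puromycin and blasticidin. The labels give no other genotype, treatment or time, and by them the groups differ in how purified RNA was copied and sequenced. For 15 libraries, 10 pg of RNA was copied by RT-RamDA, a method that makes cDNA again and again along its template during reverse transcription. The 5 primer sets had 3 libraries each: not-so-random primers plus oligo(dT) (NSRdT), random hexamers plus oligo(dT) (N6dT), not-so-random primers alone (NSR), meant to prime less on ribosomal RNA (rRNA), random hexamers (N6), and oligo(dT) alone (dT). The last 3 libraries (bulk) were made from 200 ng of RNA after rRNA depletion, with another kit, and their RT primer is also labelled N6.

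Elongation factors bring aminoacyl-tRNA to the ribosome and move the ribosome along the message, and initiation factors recruit the small ribosomal subunit and help it find the start codon. eEF1A is among the most abundant proteins of growing cells. Many mRNAs of the translation apparatus begin with a pyrimidine tract (the TOP motif) through which the growth signal of mTORC1 controls them, and those for eEF1A and eEF2 are classic members. All 10 mRNAs carry poly(A) tails, where oligo(dT) anneals, and random primers anneal at any position.

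Estimated counts per library ranged from 5333546 to 10234690. All 8 ES cell markers, among them Pou5f1, Sox2 and Nanog, had counts in every library, with a summed level of 1119 to 4412 CPM (counts per 1000000 of the library total). Bulk replicate 2 stood apart: 12 markers of primitive endoderm summed to 10628 CPM there, against 1098 and 958 CPM in the other bulk libraries and 397 to 786 CPM in the RT-RamDA libraries. Bulk comparisons are therefore given with and without it. The labels do not state whether libraries with 1 primer set stem from separate cultures, so p-values measure the spread between libraries, which may be technical. Counts are PCR reads without molecular identifiers, and in RNA pooled from a culture fewer cells making a transcript and less of it per cell cannot be told apart.

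The 10 genes together took 0.895% ± 0.022 (SD, n = 3) of the counts with NSRdT, 0.653% ± 0.025 with N6dT, 0.711% ± 0.032 with NSR, 0.567% ± 0.012 with N6, 1.67% ± 0.018 with dT and 1.64% ± 0.064 in bulk. Eef1a1, which encodes eEF1A1, made up between 52.9% (NSR) and 61.2% (dT) of the counts of the 10 genes in the group means. It ranked 3rd among all genes with dT, 7th in bulk, 10th with NSRdT, N6dT and N6, and 11th with NSR. Levels can be compared between genes only per length, for which the estimated counts of each entry were divided by its length and scaled to a sum of 1000000 per library. On that scale Eef1a1 stood at 4197 ± 104 with NSRdT, 2789 ± 118 with N6dT, 4508 ± 254 with NSR, 3289 ± 210 with N6, 7953 ± 56.8 with dT and 7549 ± 468 in bulk. No library of any of the other 9 genes reached the Eef1a1 libraries of its own group.

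The order of the other genes per length depended on the primers, and in part on the length used. In bulk, Eef2 (1269 ± 40.3), the translocase of the ribosome, and Eef1b2 (1263 ± 50.8), the catalytic subunit of the eEF1A exchange factor, overlapped. They were followed by Eef1g (871 ± 30.8), a structural subunit of the same complex, Eif5a (579 ± 9.97), which helps peptide bonds form at difficult sequences, and Eif1 (431 ± 11.6), which guards start codon choice. Eif4b (258 ± 14.7), a cofactor of the helicase eIF4A, and Eef1d (255 ± 7.86), the second exchange subunit, overlapped, as did Eif3a (170 ± 7.70), the largest eIF3 subunit, and Eif4g1 (161 ± 9.24), the scaffold of the cap-binding complex. With dT, Eef1b2 (1847 ± 145) stood above Eef2 (1108 ± 56.6) in every library. With N6 the order of these genes was the opposite, Eef1b2 at 246 ± 30.6 lying below Eef2 at 438 ± 5.65, again without overlap. With lengths cut by 200 bases as an alternative, Eef1b2 stood above Eef2 in bulk (1026 ± 50.6, against 761 ± 33.5). With N6 it then lay nearer to Eef2, at 240 ± 34.3, against 279 ± 1.43. By full length the place of Eif1 moved most. It was the sixth of the 10 with NSRdT, N6dT, dT and in bulk. With NSR it was the lowest (71.3 ± 26.3), but its libraries overlapped those of Eif4g1 (71.9 ± 7.34). With N6 it was the seventh (68.3 ± 12.2), where its libraries overlapped those of its neighbours. By the cut lengths Eif1 stood at 66.0 ± 24.6 with NSR, against 63.1 ± 15.2 for Eef1d and 47.7 ± 6.81 for Eif4g1. With N6 it then stood at 59.9 ± 14.6, against 47.9 ± 3.42 for Eef1d, so its place depends on the length used. Eif4g1 was the lowest with NSRdT (75.2 ± 22.2), N6dT (48.8 ± 12.9), dT (64.2 ± 2.65) and in bulk.

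**Figure D1:**
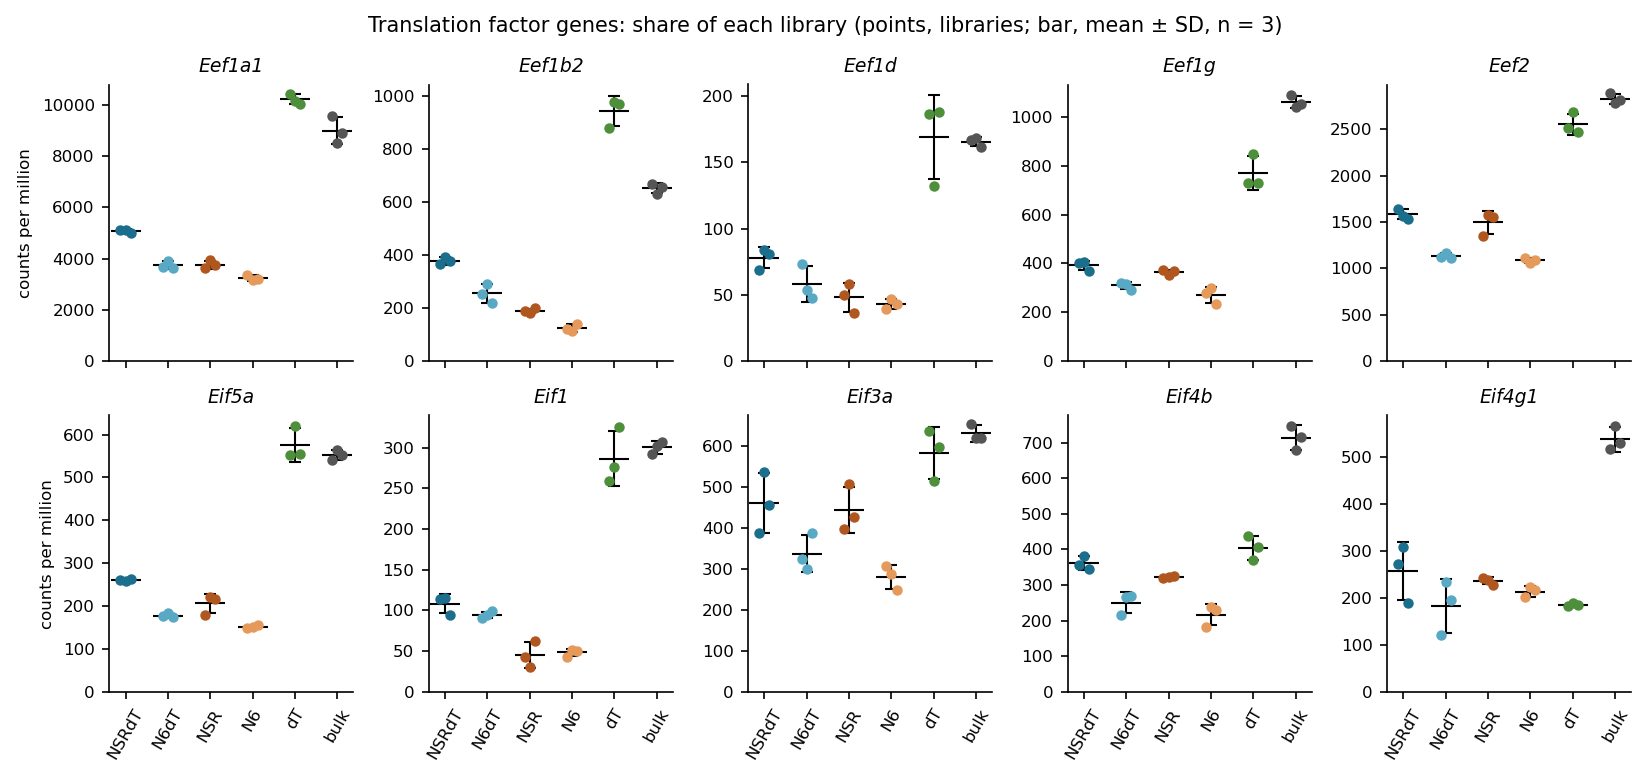
CPM of the library total (vertical axes, linear from 0) of the 10 genes, 1 panel each, in NSRdT, N6dT, NSR, N6, dT and bulk; each point is a library and each line a group mean. The dT libraries of Eef1a1 (10053 to 10433 CPM) and Eef1b2 (876 to 978 CPM) sit above all others, and the bulk libraries of Eif4g1 (516 to 566 CPM) lie above every RT-RamDA library.

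The genes differ in length and in how their annotated transcripts end. Coordinates are in GRCm38 (mm10), and the main entry is the transcript with the largest mean estimate. The short ones were Eef1b2 (chromosome 1, 63176825 to 63180486, plus strand), whose main entry Eef1b2-004 has 691 bases and is annotated as subject to nonsense-mediated decay, Eef1d (chromosome 15, 75894205 to 75909556, minus strand; Eef1d-015, 824 bases), Eif1 (chromosome 11, 100319885 to 100322096, plus strand; 1322 bases) and Eif5a (chromosome 11, 69916714 to 69921958, minus strand; 1343 bases). Eef1a1 (chromosome 9, 78478449 to 78489151, minus strand; 1794 bases) and Eef1g (chromosome 19, 8967041 to 8978479, plus strand; 1864 bases) were of middle length. The long ones were Eef2 (chromosome 10, 81176631 to 81182498, plus strand; 3098 bases), Eif4b (chromosome 15, 102073773 to 102097173, plus strand; 3853 bases), Eif3a (chromosome 19, 60761117 to 60790658, minus strand; 5176 bases) and Eif4g1 (chromosome 16, 20668313 to 20692884, plus strand; 5394 bases). Eef1b2 overlaps Ndufs1 on the opposite strand, and the strand used in counting is not given in the sources used here, so their reads may not be told apart. Eef1d overlaps Naprt on its own strand.

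Before a poly(A) tail most mRNAs have the signal AATAAA or its variant ATTAAA, searched here on the sense strand in the last 40 bases of each transcript. The main entries of Eef2, Eif1, Eif5a, Eif4b and Eif3a hold AATAAA and those of Eef1a1 and Eif4g1 ATTAAA. The annotated main entries of Eef1b2, Eef1d and Eef1g hold neither. Other entries of Eef1b2 and Eef1d end farther downstream with a signal, AATAAA in Eef1b2-009 and ATTAAA in Eef1d-013. The mRNAs of these genes therefore need not lack a signal. Of 21766 main transcripts of protein-coding genes in the same annotation, 65.4% hold one of these signals. Among the 10 main entries Eif3a alone has a run of 8 or more A inside its sequence. Of those 21766 main transcripts 23.3% have such a run, and 36.2% of those with 3000 to 6000 bases. Such runs are shown because oligo(dT) can anneal to them, and whether it did so here was not tested. The last 30 bases of 2 main entries, with the signal in capitals, and the longest A-run of Eif3a, 12 bases long and 709 bases before the end of its 3′ UTR, in capitals with its flanks, read from GENCODE vM21, are:
Eif1-001: cttatttaAATAAAgcttgttttcagaaac
Eef1b2-004: tgctggaagagcaaattactgcttttgagg
Eif3a-201: tcatttgttAAAAAAAAAAAActaaaaaat

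The first question was which of these mRNAs random primers and oligo(dT) capture unequally. Levels from here on are CPM after TMM scaling, which sets libraries level over most of their genes, and log2 fold changes (log2FC) carry their standard error. In NSR and N6 together (n = 6) against dT (n = 3), 6 of the 10 genes were lower and 1, Eif4g1, was higher at an adjusted p under 0.05 (edgeR quasi-likelihood F test, Benjamini-Hochberg adjustment over 15682 genes). Of all genes 17.1% were called, 7.54% as lower and 9.54% as higher. The median log2FC was -0.49 over the 10 genes and 0.12 over all genes. Without TMM, by library totals alone, the median of all genes was -0.80, 9 of the 10 genes were lower, and Eif4g1 was not called (0.27, adjusted p = 0.259), so each direction here is relative to the other genes of the library.

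Eef1b2 had 210, 193 and 211 CPM with NSR and 165, 156 and 190 CPM with N6, against 566, 619 and 618 CPM with dT. Every library of NSR and N6 lay below every dT library, and the log2FC was -1.69 ± 0.10 (adjusted p = 2.78e-09). Eef1d had 55.2, 61.8 and 39.0 CPM with NSR and 54.0, 64.7 and 59.2 CPM with N6, against 121, 83.8 and 120 CPM with dT. Its groups did not overlap, with a log2FC of -0.96 ± 0.20 (adjusted p = 0.00343). For its main entry taken alone the log2FC was -0.35 (adjusted p = 0.662), which was not called. Eef1g had 413, 377 and 392 CPM with NSR and 380, 413 and 321 CPM with N6, against 472, 538 and 465 CPM with dT. These groups did not overlap either, with a log2FC of -0.36 ± 0.10 (adjusted p = 0.0170), but without dT replicate 2 the call was lost (-0.33, adjusted p = 0.0621).

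Eef1a1, which the exchange factor subunits above recharge with GTP, had 4031, 4185 and 3979 CPM with NSR and 4599, 4370 and 4373 CPM with N6, against 6745, 6431 and 6403 CPM with dT. It was lower in all 6 random-primed libraries, by a log2FC of -0.62 ± 0.04 (adjusted p = 3.14e-09). Eef2 had 1501, 1674 and 1660 CPM with NSR and 1512, 1468 and 1490 CPM with N6, against 1623, 1697 and 1572 CPM with dT. These libraries overlapped and the gene was not called (-0.07 ± 0.06, adjusted p = 0.421). Eif5a had 200, 237 and 231 CPM with NSR and 204, 210 and 213 CPM with N6, against 357, 393 and 353 CPM with dT, and was lower without overlap (-0.77 ± 0.09, adjusted p = 2.13e-05).

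Among the initiation factors, Eif1 had 47.1, 32.7 and 66.2 CPM with NSR and 59.3, 71.8 and 68.6 CPM with N6, against 167, 175 and 207 CPM with dT. Its highest random-primed library stood below its lowest dT library, and its log2FC of -1.68 ± 0.18 (adjusted p = 4.75e-06) was close to that of Eef1b2. Eif4g1 had 270, 254 and 243 CPM with NSR and 274, 309 and 297 CPM with N6, against 118, 120 and 118 CPM with dT. It was higher in every random-primed library (1.21 ± 0.18, adjusted p = 0.000154). Eif4b had 356, 342 and 349 CPM with NSR and 250, 331 and 315 CPM with N6, against 283, 234 and 259 CPM with dT. A single N6 library fell within the dT range, and edgeR did not call the gene (0.32 ± 0.11, adjusted p = 0.0619), while DESeq2 did (0.38, adjusted p = 0.00312). Eif3a had 441, 540 and 456 CPM with NSR and 419, 400 and 343 CPM with N6, against 412, 326 and 380 CPM with dT, with overlap and no call (0.21 ± 0.13, adjusted p = 0.302).

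The log2FC of the 10 genes followed the length of their main entry, from Eef1b2 with 691 bases to Eif4g1 with 5394. The rank correlation over the 10 genes was 0.98, and 0.76 when each gene was given the length of its longest entry. Over 12529 protein-coding genes it was 0.43, with a median log2FC of -1.30 at 500 to 1000 bases, -0.65 at 1000 to 2000, 0.06 at 3000 to 4000 and 0.61 at 5000 to 6000. These are descriptions across genes of the same libraries, and genes are not independent replicates. Eef1a1 (-0.62) lay close to the median of its length class, and Eef1g (-0.36) lay above it. Of the same class, Eif5a (-0.77) also lay close to that median, while Eif1 (-1.68) lay far below it.

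**Figure D2:**
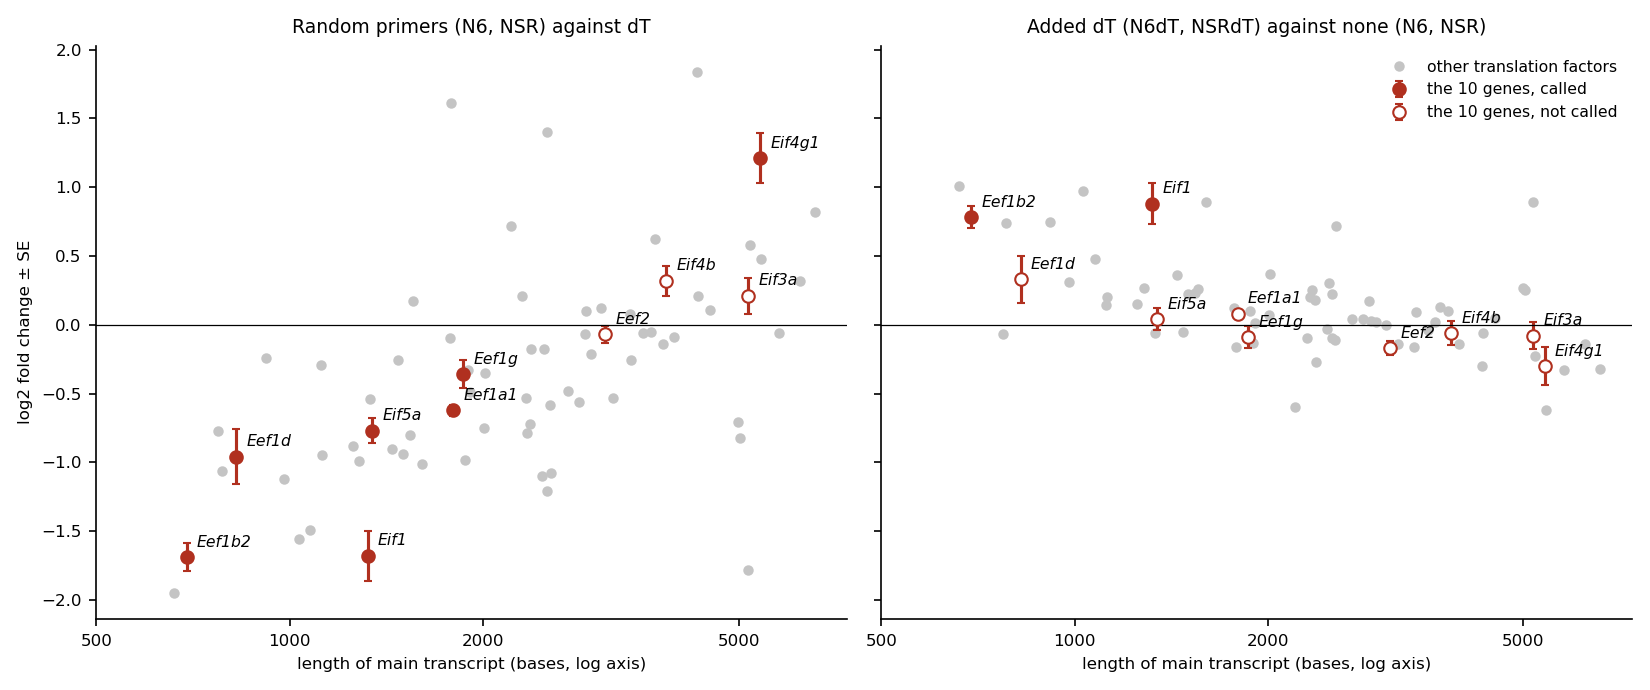
Log2 fold change of NSR and N6 against dT (first panel) and of N6dT and NSRdT against N6 and NSR (second panel) by length of the main entry (log axis, bases). Points with SE bars are the 10 genes, grey points other translation factors, and the horizontal line marks no change. In the first panel the 10 genes climb from -1.69 (Eef1b2) to 1.21 (Eif4g1), and in the second Eef1b2 (0.78) and Eif1 (0.88) lie above the rest; by library totals alone Eif4g1 is not called in the first (0.27), and Eif4b (-0.61) and Eif3a (-0.72) are lower.

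Other translation factors were read from lists of the initiation and elongation apparatus and its partners, 63 genes of which 62 could be tested. In NSR and N6 against dT, 20 were lower and 3 higher, where 7.54% of all genes were lower and 9.54% higher. The median log2FC of these factors was -0.34. Of the 14 genes under 1500 bases 9 were lower and 0 higher, with a median of -0.93, among them Tpt1, a binder of elongation factors (-1.95 ± 0.07, adjusted p = 7.05e-12), and Eif3g, an RNA-binding eIF3 subunit (-1.49 ± 0.21, adjusted p = 8.20e-05). Of the 28 genes of 1500 to 3000 bases 9 were lower and 1 higher, with a median of -0.48, and of the 20 genes of 3000 bases or more 2 were lower and 2 higher, with a median of 0.01. Length did not order every gene: Eif1ax, which encodes eIF1A, a partner of eIF1 in scanning, has a main entry of 5172 bases and was lower by -1.78 ± 0.26 (adjusted p = 0.000131).

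By role, 7 of 13 other eIF3 subunits were lower, including Eif3h (-0.88 ± 0.13, adjusted p = 0.000224), while Eif3c (0.08) and Eif3b (-0.21) were not called. Of 15 genes of the cap-binding complex and its partners 5 were lower, including the poly(A)-binding protein Pabpc1 (-0.56 ± 0.08, adjusted p = 0.000120), and 1 was higher, Eif4ebp2 (1.61 ± 0.24, adjusted p = 0.000165), which holds eIF4E away from eIF4G. Eif4g2, a relative of Eif4g1 that lacks the eIF4E site, was not called (-0.06). Of 10 subunits of eIF2, which carries the initiator tRNA, and of its exchange factor eIF2B, 2 were lower, Eif2s2 (-0.58 ± 0.10, adjusted p = 0.000595) and Eif2b4 (-0.98, adjusted p = 0.0415). Of 7 other elongation genes 3 were lower, including Eef1e1 (-1.56 ± 0.28, adjusted p = 0.00112). The release factor Etf1 (0.62 ± 0.15, adjusted p = 0.00952) was higher and Denr, which recycles ribosomes, lower (-0.79 ± 0.20, adjusted p = 0.0130), out of 6 termination and recycling genes. Of 7 other initiation genes 2 were lower, Eif1ax and its relative Eif1ad (-1.10, adjusted p = 0.0464), and Eif5 (-0.09) and Eif5b (-0.06), which act in GTP hydrolysis and subunit joining, were not called. Of 4 kinases of eIF2α 1 was higher, Eif2ak2, which senses double-stranded RNA (1.84 ± 0.51, adjusted p = 0.0220). Outside these lists, 2 of 21 tRNA synthetase genes and their scaffold genes were lower, the scaffolds Aimp1 (-0.87 ± 0.22, adjusted p = 0.0118) and Aimp2 (-1.57 ± 0.46, adjusted p = 0.0282). Over all genes 7.54% were lower and 9.54% higher in this comparison, and no list was tested against these shares. The 2 of 21 lie near the share of all genes called lower.

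The second question was what oligo(dT) adds to a random-primed reaction. In NSRdT and N6dT (n = 6) against NSR and N6 (n = 6), 2 of the 10 genes were higher, Eef1b2 and Eif1, and 0 were lower; of all genes 2.17% were called, 1.80% as higher and 0.376% as lower. By unadjusted p under 0.05, 5 of the 10 genes passed, as did 1402 of the 15682 genes tested. The NSR and N6 libraries also stand in the comparison with dT, so the values of the 2 comparisons are not independent. The median log2FC was -0.01 over the 10 genes and -0.02 over all genes, and by library totals alone that of all genes became 0.22.

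Eef1b2 had 320, 336 and 337 CPM with NSRdT and 316, 342 and 268 CPM with N6dT, against the 156 to 211 CPM with NSR and N6 given above. Both groups with oligo(dT) lay above both groups without it (0.78 ± 0.08, adjusted p = 2.14e-05) and below the 566 to 619 CPM with dT alone. Eif1 had 101, 99.0 and 84.6 CPM with NSRdT and 114, 110 and 121 CPM with N6dT, against 32.7 to 71.8 CPM with NSR and N6. It too rose without overlap (0.88 ± 0.15, adjusted p = 0.00305) and stayed below the 167 to 207 CPM with dT alone.

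The other 8 genes were not called. Eef1d, the next shortest after Eef1b2, had 60.7, 72.2 and 72.5 CPM with NSRdT and 91.5, 62.8 and 58.2 CPM with N6dT, which overlapped its libraries without oligo(dT) (0.33 ± 0.17, adjusted p = 0.638). Eef1a1 had 4517, 4387 and 4474 CPM with NSRdT and 4591, 4584 and 4430 CPM with N6dT (0.08 ± 0.03, adjusted p = 0.337). Eef2 had 1443, 1348 and 1374 CPM with NSRdT and 1408, 1360 and 1358 CPM with N6dT, every library below those with NSR and N6 (-0.17 ± 0.05, adjusted p = 0.0962). DESeq2 called Eef2 lower (-0.19, adjusted p = 4.76e-05), whereas by library totals alone its log2FC was 0.07. Eif4g1 was uneven between libraries, at 240, 265 and 168 CPM with NSRdT and 151, 273 and 239 CPM with N6dT, and overlapped NSR and N6 (-0.30 ± 0.14, adjusted p = 0.538). Eif5a (0.04), Eef1g (-0.09), Eif4b (-0.06) and Eif3a (-0.08) differed from 0 by less than 0.10. Among the 62 other translation factors 3 rose, where 1.80% of all genes did. They were Tpt1 (1.01 ± 0.06, adjusted p = 1.56e-08), Eef1e1 (0.97 ± 0.24, adjusted p = 0.0494) and Eif1ax (0.89 ± 0.22, adjusted p = 0.0490), all of which were lower in NSR and N6 against dT. The rank correlation of log2FC with main entry length was -0.85 over the 10 genes and -0.22 over 12529 protein-coding genes.

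NSR and N6 primers were set against each other with oligo(dT) held equal (NSR and NSRdT against N6 and N6dT, n = 6 each). edgeR called 0 of the 10 genes and DESeq2 also 0, where edgeR called 0.172% of all genes; by unadjusted p under 0.05, 3 of the 10 passed, Eef1b2 (0.18), Eif1 (-0.37) and Eef1a1 (-0.08), as did 848 of the 15682 genes tested. By library totals alone 7 of the 10 were higher, but there the median of all genes also moved to 0.42. A difference in the effect of added oligo(dT) between NSR and N6 was tested as an interaction: edgeR and DESeq2 called 0 of the 10 genes, against 0.0638% of all genes by edgeR, 0 passed an unadjusted p under 0.05, where 687 of the 15682 genes tested did, and the smallest p was 0.104, for Eef1a1. With the main entry standing for the gene, edgeR called Eef1a1 in both, at -0.35 for NSR against N6 (adjusted p = 7.94e-05) and 0.58 for the interaction (adjusted p = 0.00561).

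Gene totals hide which transcript entries took the counts. At the level of entries, 56 of the 84 could be tested; in NSR and N6 against dT 7 were higher and 9 lower, where 8.44% of all entries were called, 4.94% as higher and 3.50% as lower. In NSRdT and N6dT against NSR and N6, 4 were higher and 1 lower, where 1.19% of all entries were called, 0.951% as higher and 0.235% as lower. Estimates divide reads between overlapping entries by rules not given in the sources used here, so an entry's count is less certain than its gene's.

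In Eef1a1 the entries changed more than the gene did. Its full-length entry Eef1a1-001 held 92.6%, 92.6% and 88.9% of the gene's counts with NSRdT, 91.6%, 93.8% and 94.6% with N6dT, 41.3%, 43.9% and 42.8% with NSR, 57.4%, 63.9% and 60.9% with N6, 98.3%, 98.0% and 97.7% with dT and 94.0%, 92.9% and 92.7% in bulk. NSR and N6 stood apart from all other groups, and NSR lay below N6 in every library. In NSR and N6 against dT the log2FC of Eef1a1-001 was -1.60 ± 0.03 (adjusted p = 8.77e-14), more than that of the gene (-0.62), and with oligo(dT) added it was 0.97 ± 0.03 (adjusted p = 1.07e-10), where the gene stood at 0.08 and was not called. The retained-intron entry Eef1a1-005, which ends 829 genomic bases before the 3′ end of Eef1a1-001, went the other way, at 5.97 ± 0.47 (adjusted p = 5.17e-07) in NSR and N6 against dT and -3.53 ± 0.30 (adjusted p = 5.15e-06) with oligo(dT) added. The entry Eef1a1-008, which ends 1200 genomic bases before it, had 6344, 6124 and 6681 estimated counts with NSR and 3960, 1597 and 2494 with N6, against 0, 8.22 and 55.8 with dT, and was higher without overlap (8.85 ± 1.22, adjusted p = 0.000221). Whether the annotated ends of these entries bear on their counts was not tested. The last 30 bases of these 3 entries, with a poly(A) signal in capitals where there is one, are:
Eef1a1-001: accATTAAAacaagtttaatgagaaatctg
Eef1a1-005: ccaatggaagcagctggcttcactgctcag
Eef1a1-008: cgtccaactgacaagcccctgcgactgccc

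Eef1b2-009, a coding entry of 681 bases, held 29.8%, 31.9% and 28.5% of the gene's counts with NSRdT, 29.5%, 30.5% and 29.4% with N6dT, 1.72%, 0 and 0 with NSR, 0, 0.654% and 0 with N6, 34.8%, 29.0% and 34.4% with dT and 50.1%, 47.8% and 49.1% in bulk. Its log2FC was -8.22 ± 1.08 (adjusted p = 0.000150) in NSR and N6 against dT and 7.19 ± 1.01 (adjusted p = 0.000953) with oligo(dT) added; the size of such values depends on the prior count, since 4 of the 6 NSR and N6 libraries are at 0. The main entry Eef1b2-004, which was shown above to end without a signal, ends 88 genomic bases before Eef1b2-009. It was lower in NSR and N6 against dT (-1.49 ± 0.15, adjusted p = 9.36e-06) and higher with oligo(dT) added (0.64 ± 0.13, adjusted p = 0.0191). This second call was lost when any library of the comparison other than N6dT replicate 3 was left out (adjusted p from 0.0509 to 0.0971). Unlike Eef1b2-004, the entry Eef1b2-009 ends with AATAAA:
Eef1b2-009: agtgcacttaAATAAAagcttgaaagataa

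In Eif1, the full-length entry Eif1-001, whose end with AATAAA is given above, held 71.6%, 65.7% and 66.0% of the gene with NSRdT, 59.4%, 61.9% and 58.2% with N6dT, 47.2%, 55.6% and 46.7% with NSR, 56.9%, 51.0% and 64.4% with N6, 80.9%, 73.3% and 69.6% with dT and 77.4%, 77.7% and 81.2% in bulk. It was lower in NSR and N6 against dT (-2.21 ± 0.21, adjusted p = 5.69e-06) and rose with oligo(dT) added (1.18 ± 0.18, adjusted p = 0.00252). Eef1g-001 (-0.79 ± 0.11, adjusted p = 0.000231) and Eif5a-001 (-0.80 ± 0.14, adjusted p = 0.00207) were lower in NSR and N6 against dT. The processed transcript Eef1g-006, which ends 5843 genomic bases before Eef1g-001, had 308, 218 and 386 estimated counts with NSR and 191, 363 and 137 with N6, against 0, 5.51 and 8.11 with dT, and was higher (7.03 ± 0.93, adjusted p = 0.000154).

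In Eif4g1 the main entry Eif4g1-201 was the largest in the mean of every group but dT, with 66.6% of the gene's counts with NSRdT, 71.4% with N6dT, 77.6%, 51.7% and 20.6% in the NSR libraries, 68.2% with N6, 12.9% with dT and 38.0% in bulk. Eif4g1-010, an entry of 3094 bases that ends 9045 genomic bases before the main one, held 14.1%, 0.0716% and 7.61% with NSRdT, 12.8%, 6.05% and 11.4% with N6dT, 3.84%, 15.2% and 25.8% with NSR, 14.3%, 20.3% and 7.31% with N6, 0 in all 3 dT libraries and 12.2%, 11.5% and 12.2% in bulk. It had 75 to 471 counts in the NSR and N6 libraries. Its mean CPM there was at least 108-fold higher than with dT, counting the floor as 3 counts per library (adjusted p = 0.00111). In the other direction stood Eif4g1-005, an entry of 2200 bases subject to nonsense-mediated decay. It has 13 exons where the main entry has 32 but ends within 3 bases of it. It had 0 counts in all NSR and N6 libraries, against 367 to 473 with dT. By the mean CPM with dT it was at least 106-fold lower in NSR and N6 (adjusted p = 0.00478). Eif4g1-005 was also at 0 in all NSRdT and N6dT libraries, and held 21.4%, 19.2% and 25.4% of the gene with dT and 0.216% to 0.663% in bulk. The coding entry Eif4g1-007 averaged 0.0837% with NSRdT, 2.51% with N6dT, 6.01% with NSR and 5.55% with N6, held 36.1%, 79.9% and 47.6% in the dT libraries and averaged 1.11% in bulk. The end of Eif4g1-010 and, with ATTAAA in capitals, that of Eif4g1-007 are:
Eif4g1-010: ccaagcctcgaatggatcagtatttcaacc
Eif4g1-007: cctgtaattATTAAAcatgaattcaattaa

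**Figure D3:**
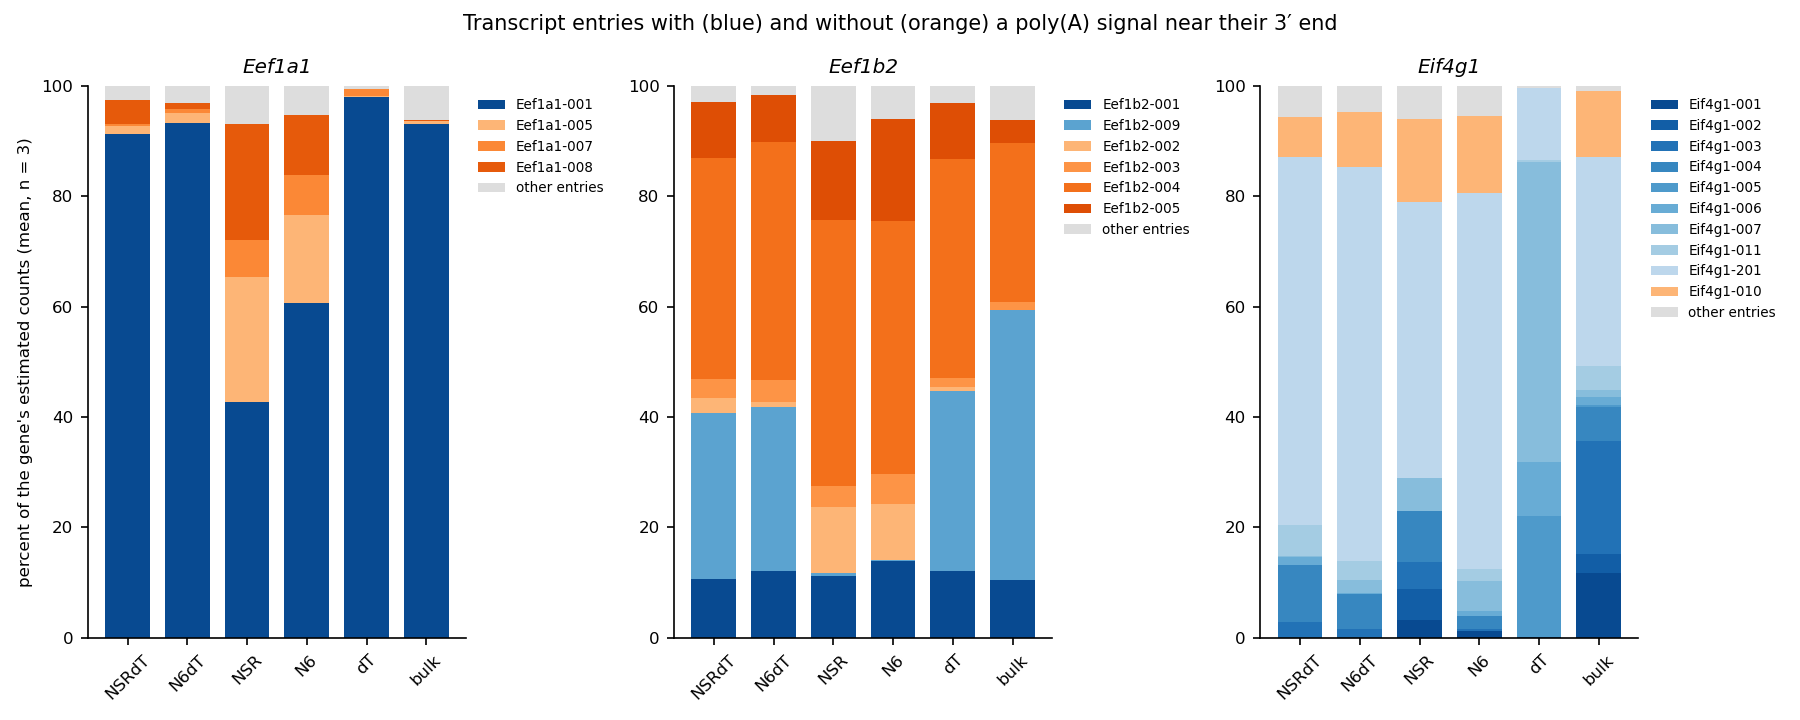
Share of the gene's estimated counts (percent) on transcript entries of Eef1a1, Eef1b2 and Eif4g1 in NSRdT, N6dT, NSR, N6, dT and bulk. Stacked bars are means of 3 libraries. Eef1a1-001 fills over 88% of every bar but NSR and N6, and Eef1b2-009 nearly vanishes in those same bars.

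Entries that hold at least 5% of their gene in some group were sorted by their end: 22 of 43 hold AATAAA or ATTAAA in the last 40 bases. Their share of Eef1a1 is that of Eef1a1-001. In Eef1b2 such entries took 40.8% ± 1.05 with NSRdT, 41.8% ± 2.90 with N6dT, 11.7% ± 5.22 with NSR, 14.1% ± 1.5 with N6, 44.8% ± 3.45 with dT and 59.3% ± 0.73 in bulk (SD, n = 3). In Eif1 they took 83.0% ± 3.66 with NSRdT, 69.6% ± 3.60 with N6dT, 57.4% ± 6.13 with NSR, 61.2% ± 6.01 with N6, 86.4% ± 8.25 with dT and 90.3% ± 1.63 in bulk. Eif4g1 differed less, with 79.0% ± 10.3 with NSR and 80.6% ± 1.57 with N6, against 99.6% ± 0.45 with dT. Eif5a stood at 73.3% with NSR and 74.2% with N6, against 74.6% with dT, while bulk held 96.7%. Eef2, Eif4b and Eif3a have a single such entry, and Eef1g has none with a signal. In Eef1d, entries with a signal took 31.3% ± 3.26 with NSRdT, 32.7% ± 9.74 with N6dT and 14.9% ± 8.20 with NSR. With N6 they took 8.0% ± 4.41, with dT 45.2% ± 12.33 and in bulk 50.7% ± 2.02. Whether the ends of entries bear on any of these shares was not tested.

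The third question was how close each 10 pg reaction came to bulk RNA. The 5 comparisons use the same 3 bulk libraries, so their values stand side by side and are not independent; each fit has its own scale, and the sides differ at once in input, kit, PCR cycles and rRNA depletion, which cannot be told apart. Against bulk, 3 of the 10 genes were lower and 0 higher with NSRdT, where 5.28% of all genes were called (2.58% lower and 2.69% higher). With N6dT 3 were lower and 0 higher, where 4.79% of all genes were called (2.09% and 2.70%). With NSR 5 were lower and 1 higher, where 8.67% were called (4.65% and 4.01%). With N6 5 were lower and 0 higher, where 7.21% were called (3.90% and 3.31%). With dT 2 were lower and 3 higher, where 18.8% were called (11.9% and 6.90%). The median log2FC of the 10 genes was -0.31, -0.31, -0.33, -0.42 and 0.17 in that order, and that of all genes -0.04, -0.03, -0.03, -0.03 and -0.19. By library totals alone the median of all genes became -0.75, -1.23, -1.04, -1.39 and -0.45, and all 10 genes were lower with NSRdT, N6dT, NSR and N6. Without bulk replicate 2 fewer held: Eef1g and Eif1 with NSRdT, Eef1g with N6dT, Eef1b2, Eif1 and Eef1g with NSR, Eef1b2 and Eif1 with N6, and Eef1b2, Eif4g1, Eef1a1 and Eif4b with dT. Those are 12 of 22 calls, against 7 without bulk replicate 1 and 7 without bulk replicate 3, and no log2FC of the 22 moved by more than 0.05 in any of these.

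The exchange factor subunits went apart. Eef1b2 averaged 485 ± 14.2 CPM with NSRdT and 510 ± 15.7 CPM in bulk (-0.07 ± 0.07, adjusted p = 0.681), and was likewise not called with N6dT (-0.16 ± 0.11, adjusted p = 0.499). It was lower with NSR (269 ± 13.5 CPM, against 462 ± 14.2 in bulk; -0.78 ± 0.09, adjusted p = 0.00270) and with N6 (200 ± 22.1 CPM, against 408 ± 12.5 in bulk; -1.03 ± 0.11, adjusted p = 0.00180). With dT it was higher (1034 ± 58.6 CPM, against 598 ± 18.6 in bulk; 0.79 ± 0.08, adjusted p = 0.00275). These calls of Eef1b2 held without any single bulk library, but for its main entry alone the log2FC was -0.03 with NSR and -0.37 with N6, neither called (adjusted p = 0.910 and 0.100). Eef1d was lower with NSR (-0.78 ± 0.18, adjusted p = 0.0463) and N6 (-0.58 ± 0.12, adjusted p = 0.0337). For its main entry alone the direction turned: it was called higher with N6 (1.65, adjusted p = 0.00488), and stood at 1.14 with NSR (adjusted p = 0.132). Both calls of the gene ended without any one of the 3 bulk libraries, and that with NSR also without NSR replicate 1 (adjusted p = 0.0566).

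Eef1g had 401, 405 and 369 CPM of library total with NSRdT, 320, 316 and 292 with N6dT, 372, 354 and 368 with NSR, 278, 298 and 234 with N6, and 730, 850 and 730 with dT, against 1091, 1043 and 1052 in bulk. Every RT-RamDA library lay below bulk. After scaling it was lower with NSRdT (-0.72 ± 0.07, adjusted p = 0.00196), N6dT (-0.58 ± 0.08, adjusted p = 0.00932), NSR (-0.54 ± 0.08, adjusted p = 0.00916) and N6 (-0.61 ± 0.11, adjusted p = 0.0175), and was not called with dT (-0.20 ± 0.08, adjusted p = 0.159). The call with NSRdT held without any single bulk library. The call with N6 ended without any one of them (adjusted p from 0.0672 to 0.109), and those with N6dT and NSR without bulk replicate 1 (0.0760 and 0.0739) or 3 (0.0783 and 0.0757).

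Eef1g shares 1157 31-base words with Gm4366, a processed pseudogene on chromosome 7 (116824510 to 116825851, minus strand), and whether the counts of Gm4366 come from Eef1g reads was not tested. Gm4366 took 18.1%, 19.8% and 13.5% of the counts of both genes with NSRdT, 14.6%, 14.1% and 12.9% with N6dT, 7.34%, 12.9% and 8.55% with NSR, 17.1%, 4.37% and 14.5% with N6 and 21.0%, 19.0% and 19.8% with dT, against 0, 0.211% and 0 in bulk. With such copies added, the log2FC of Eef1g against bulk was 0.12 with dT, with its sign turned, and -0.36 with N6dT, where the call ended (adjusted p = 0.0538).

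**Figure D4:**
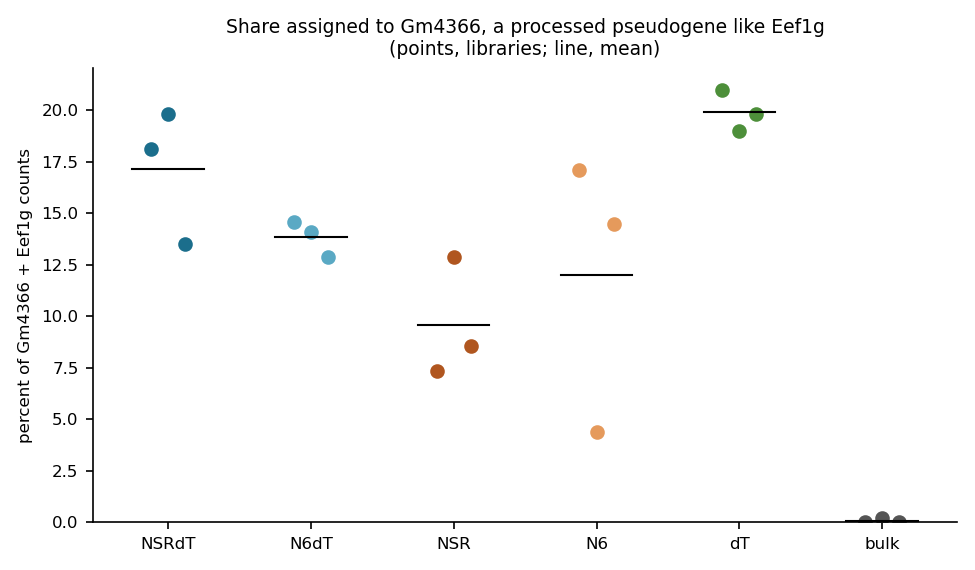
Percent of the estimated counts of Eef1g and Gm4366 together that were assigned to Gm4366, by group; points are libraries and lines group means. The RT-RamDA libraries range from 4.37% to 21.0% and the 3 bulk libraries lie at 0 or 0.211%.

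Eef1a1 was not called against bulk with NSRdT (-0.11 ± 0.06, adjusted p = 0.371), N6dT (-0.07 ± 0.06, adjusted p = 0.622), NSR (-0.25 ± 0.06, adjusted p = 0.0600) or N6 (-0.11 ± 0.06, adjusted p = 0.395). Other settings did call it lower: with the main entry alone with NSR (-1.38, adjusted p = 8.92e-05) and N6 (-0.73, adjusted p = 0.00104), and with NSR by DESeq2 (-0.21, adjusted p = 0.0455) and edgeR without a filter on low counts (-0.36, adjusted p = 0.0452). Eef1a1 was higher with dT, at 11226 ± 262 CPM against 8245 ± 504 CPM in bulk (0.45 ± 0.06, adjusted p = 0.00968), but not by library totals alone (0.18, adjusted p = 0.0994), nor without bulk replicate 1 (adjusted p = 0.0520) or 3 (adjusted p = 0.0722). Eef2 passed in none of the 5 comparisons, with a log2FC between -0.12 and 0.11. Eif5a was lower with NSRdT (-0.37 ± 0.07, adjusted p = 0.0417), N6dT (-0.44 ± 0.08, adjusted p = 0.0260), NSR (-0.42 ± 0.10, adjusted p = 0.0464) and N6 (-0.50 ± 0.08, adjusted p = 0.0141) and higher with dT (0.32 ± 0.08, adjusted p = 0.0362). All 5 calls of Eif5a ended without any one of the bulk libraries (adjusted p from 0.0601 to 0.232).

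Eif1 had 114, 115 and 94.7 CPM of library total with NSRdT, 91.3, 94.2 and 98.8 with N6dT, 42.4, 30.6 and 62.1 with NSR and 43.4, 51.7 and 49.9 with N6, against 292, 302 and 307 in bulk. It was lower with all 4 after scaling: with NSRdT (-0.76 ± 0.10, adjusted p = 0.00942), N6dT (-0.46 ± 0.09, adjusted p = 0.0379), NSR (-1.73 ± 0.24, adjusted p = 0.00721) and N6 (-1.27 ± 0.11, adjusted p = 0.000842). The calls with NSR and N6 held without any single bulk library, that with N6dT ended without any one of them (adjusted p from 0.139 to 0.234), and that with NSRdT ended without bulk replicate 1 (0.0694) or 3 (0.0854). With dT, Eif1 had 259, 276 and 325 CPM of library total, which took in the bulk values, and was not called, although after scaling its dT libraries lay above bulk (0.19 ± 0.11, adjusted p = 0.330).

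Among the long initiation factors Eif4g1 and Eif4b were lower with dT and Eif3a was not called. Eif4g1 had 182, 189 and 185 CPM of library total with dT, against 516, 566 and 529 in bulk, and its log2FC after scaling was -1.27 ± 0.08 (adjusted p = 0.000531), which held without any single bulk library. For its main entry alone the log2FC was -2.83 but was not called (adjusted p = 0.218). With NSRdT (-0.36 ± 0.17), N6dT (-0.36 ± 0.20), NSR (-0.18 ± 0.09) and N6 (0.03 ± 0.09) Eif4g1 was not called. Its main entry alone was called higher with N6 (0.89, adjusted p = 0.0274), and stood at 0.49 with NSRdT, 0.55 with N6dT and 0.25 with NSR, not called. Eif4b averaged 445 ± 41.0 CPM with dT and 655 ± 32.6 CPM in bulk, also lower (-0.56 ± 0.10, adjusted p = 0.0109), though not without bulk replicate 1 (adjusted p = 0.0680) or 3 (0.0730). Eif3a was not called with dT (0.15 ± 0.11, adjusted p = 0.441) and was higher with NSR (631 ± 70.8 CPM, against 447 ± 15.6 in bulk, log2FC 0.50 ± 0.10, adjusted p = 0.0332). That call ended without any one of the bulk libraries (adjusted p from 0.147 to 0.185).

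**Figure D5:**
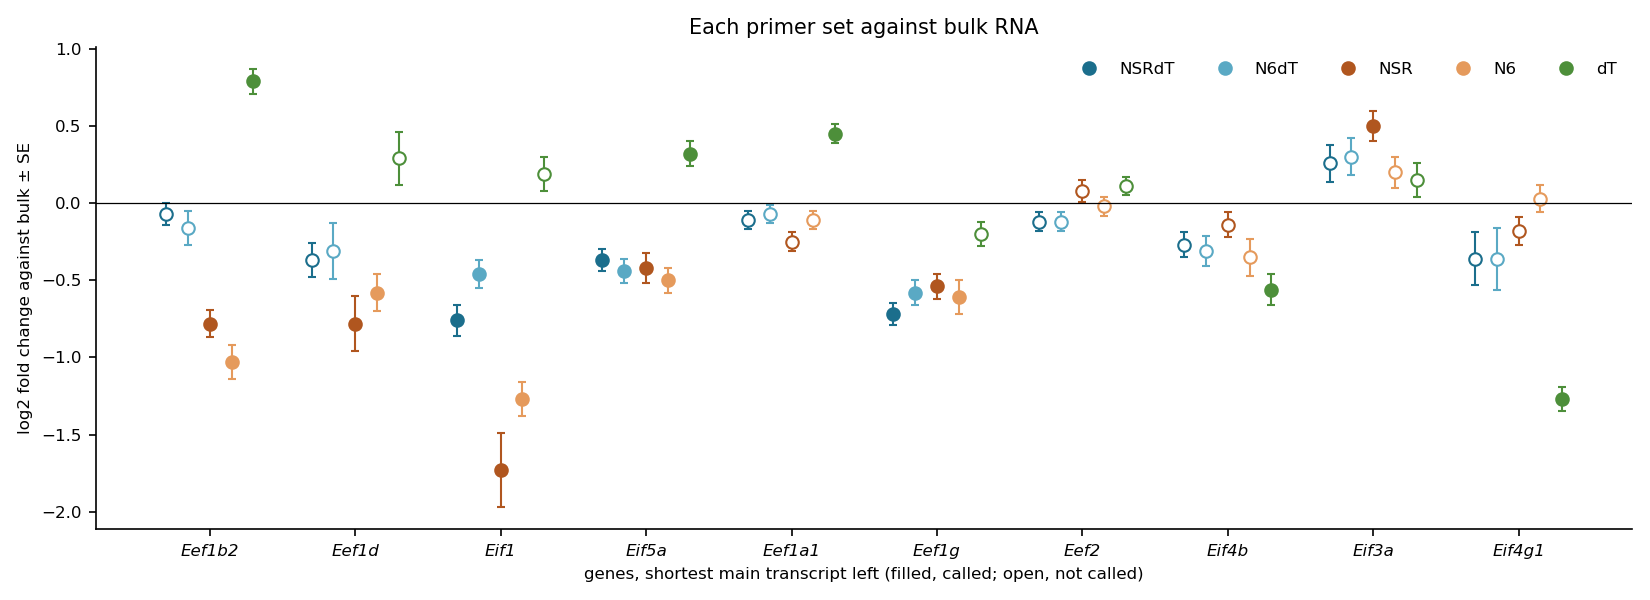
Log2 fold change against bulk after TMM scaling for each of the 10 genes with NSRdT, N6dT, NSR, N6 and dT, with SE bars; filled points have an adjusted p under 0.05. Eef1b2 runs from -1.03 with N6 to 0.79 with dT, and Eif4g1 is called with dT alone (-1.27); by library totals alone all 10 genes are lower with NSRdT, N6dT, NSR and N6.

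The rank correlation of log2FC against bulk with the length of the main entry was 0.25 with NSRdT, 0.14 with N6dT, 0.84 with NSR, 0.82 with N6 and -0.81 with dT over the 10 genes, and 0.11, 0.10, 0.26, 0.26 and -0.32 over protein-coding genes in the same order, as descriptions across genes of shared libraries. Of the 62 other translation factors 21 were higher than bulk with dT and 0 lower, where 6.90% of all genes were higher.

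Genes whose profile over the 6 groups was nearest to each of the 10 were sought among 7342 protein-coding genes by the root mean square difference of centred log2(CPM + 1) group means. For Eef1a1 they were Dctn6 (0.03), Rrm2 (0.03) and Nr4a1 (0.04), and for Eef1b2 the ADP/ATP carrier Slc25a5, the ribosomal protein gene Rpl34 and Supt4a (0.07 each). For Eif1 the nearest, Gm10116 (0.10) and Serf2 (0.12), lay farther off. Eef2 was nearest to Tuba4a (0.04), Eif4g1 to Inpp5a and Fzd5 (0.08 each), Eif4b to Zmynd8 (0.03) and Eif3a to U2surp (0.06).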

How the data were processed

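The deposited table holds estimated counts per transcript entry for 18 libraries, per the file headers, which name GENCODE transcripts, genes and lengths. The submitters' processing notes name bcl2fastq 2.16.0.10 and the mm10 build; how reads were aligned, assigned to entries and counted by strand is not given in the sources used here. Library PCR ran for 17 cycles in RT-RamDA and 7 in bulk, per the labels' protocols. The series text counts 12 RT-RamDA samples; all 15 listed were analysed. All value columns were used, and 92 ERCC entries were left out of totals and tests.

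Counts were summed per gene identifier and rounded, then tested by the quasi-likelihood F test of edgeR 4.0.16 (R 4.3.3; two-sided, TMM scaling, filterByExpr) with Benjamini-Hochberg adjustment over all features tested, called under 0.05. Contrasts between primer sets came from 1 fit of 15 libraries, and each primer set was fitted with bulk on its own 6 libraries. The script was tested on simulated data. DESeq2 1.42.0, other scalings, no filter, a replicate block, leaving out each library, the main entry alone, and adding genes that share 50% or more of their 31-base words were tried as alternatives. Correlations are Spearman's. Nearest profiles used log2(CPM + 1) over genes at a mean of 10 CPM or more. Sequences came from GENCODE vM21 (GRCm38), in which the main entries of Eef2, Eif4b and Eif3a differ slightly in length from the deposited ones. The entry Eef1d-001 differs more, with 2312 bases there against 1721 deposited, and was sorted by its end in vM21. Python 3.11.15, pandas 2.3.3, scipy 1.17.1 and matplotlib 3.10.9 were used.

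Named are the 10 genes, their entries with 5% or more of the gene in any group, from each list the 2 most abundant genes and the 2 called genes with the smallest p in random primers against dT, and the 3 nearest profiles of each gene; not all are printed. Members and lists were chosen with earlier results of these data known. The precision of each value is limited by counting error at the depth of each library and by 3 libraries per group. Replicate numbers did not pair libraries: deviations of same-numbered libraries had correlations of -0.0380 to 0.0429 (7181 genes).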

Additional observations from a re-analysis of the deposited data

Results flagged for a closer look

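Of 8 genes that share many 31-base words with the factors and average 20 or more estimated counts, 3 had more than 2 times the counts of the highest bulk library in every dT library. The share of all genes that meet this rule was not determined. Gm4366, like Eef1g, averaged 1926 estimated counts with dT (1943, 2017 and 1816), against 0, 21.8 and 0 in bulk. Eif5al3-ps, like Eif5a, averaged 233 with dT (252, 191 and 254), against 78.5, 72.5 and 78.4 in bulk. Gm6170, like Eef1a1, averaged 78.4 with dT (103, 69.4 and 62.4), against 24.9, 26.9 and 29.9 in bulk. The other 5, all related to Eef1a1, did not: Gm13456 had 4571 to 5668 with dT, against 4115 to 4555 in bulk, Gm5869 290 to 451, against 452 to 603, Gm6767 54.7 to 167, against 45.7 to 57.3, Gm6548 137 to 215, against 134 to 170, and Gm26377 0 to 584, against 0. Mir703, annotated as a miRNA, shares only 29 such words with Eef1a1 and was not among the 8. It averaged 85.9 estimated counts with dT and 4.8 in bulk. Whether these counts come from the copies or from reads of the factors was not tested.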

How the results depend on the processing

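With 3 libraries per group the calls against bulk are the least firm. The values below are counts of called genes (random primers against dT 2679, added dT 341, NSR against N6 27, interaction 10, and against bulk 821 with NSRdT, 730 with N6dT, 1336 with NSR, 1096 with N6 and 2957 with dT) or of called entries (random primers against dT 3054, added dT 429, N6 against bulk 3500, dT against bulk 8775). By library totals alone they were 5148, 543 and 542 for the first 3, 3941, 8117, 6126 and 8726 with NSRdT, N6dT, NSR and N6, and 5116 and 8517 for entries of random primers against dT and N6 against bulk. With DESeq2 they were 583 for added dT, 111 for NSR against N6, 75 for the interaction, and 1858, 1766, 2324 and 2075 with NSRdT, N6dT, NSR and N6. With no filter they were 89, 53, 380, 367, 668 and 607 for NSR against N6, the interaction, NSRdT, N6dT, NSR and N6. Leaving out 1 library gave 2087 to 2250, 269 to 298, 18 to 32 and 0 to 7 for the primer comparisons, 225 to 1770, 207 to 1468, 365 to 2581, 359 to 2151 and 299 to 5089 against bulk with NSRdT, N6dT, NSR, N6 and dT, and 2057 to 2304, 315 to 351, 322 to 5598 and 3943 to 14120 for entries.

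Replicate numbers did not pair the libraries, and 5 of 15 libraries correlated best with their own number. A replicate block gave 5 for the interaction, 303, 312, 584, 572 and 706 against bulk with NSRdT, N6dT, NSR, N6 and dT, and 344 and 410 for entries of N6 and dT against bulk; of the 10 genes it kept Eef1g with NSRdT and N6dT, Eef1b2, Eef1g and Eif1 with NSR and N6, and Eef1a1, Eef1b2 and Eif4g1 with dT.

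Signs turned for single genes as follows, as log2FC. By library totals alone: Eif4b -0.61 and Eif3a -0.72 in random primers against dT; Eef1g 0.15, Eef2 0.07, Eif4b 0.19 and Eif3a 0.16 for added dT; Eef1a1 0.33, Eef1d 0.29, Eef1g 0.39, Eif1 0.04 and Eif4g1 0.32 for NSR against N6; Eef2 0.02 and Eif5a 0.11 for the interaction; and against bulk Eif3a -0.46 with NSRdT, Eif3a -0.91 with N6dT, Eef2 -0.92 and Eif3a -0.51 with NSR, Eif4g1 -1.34 and Eif3a -1.17 with N6, and Eef2 -0.15, Eif1 -0.07 and Eif3a -0.12 with dT. With the main entry alone: Eef1d -0.10 and Eef1g 0.09 for added dT, Eif5a -0.01 for NSR against N6, and against bulk Eef1d 1.24, 1.36, 1.14 and 1.65 with NSRdT, N6dT, NSR and N6, Eif4g1 0.49, 0.55 and 0.25 with NSRdT, N6dT and NSR, and Eef1b2 0.41 and 0.43 with NSRdT and N6dT. With no filter: Eif5a 0.00 for the interaction, Eef2 -0.03 with NSR and Eif4g1 -0.09 with N6 against bulk. With DESeq2, and with its size factors, Eef2 was 0.02 with N6 against bulk, and with copies added Eef1g was 0.12 with dT. Leaving out 1 library gave, for NSR against N6, Eef1g -0.07 to 0.02 and Eif4g1 -0.19 to 0.00, for the interaction Eef1d -0.03 to 0.37, Eif1 -0.05 to 0.46 and Eif5a -0.08 to 0.04, and for N6 against bulk Eif4g1 -0.01 to 0.07. The causes were not tested. Leaving out rRNA-annotated and mitochondrial genes changed no direction or call of the 10 genes.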

Other observations

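Gm26377, annotated as a miRNA of 108 bases that lies inside Eef1a1-001 from its base 1608 on (chromosome 9, 78478528 to 78478635, minus strand), had counts in most libraries made with oligo(dT) and in none of the others. It had 165, 1.82 and 104 estimated counts with NSRdT, 125, 46.5 and 68.2 with N6dT, 0 in all NSR and N6 libraries, 584, 0 and 379 with dT, and 0 in bulk. The Eef1a1 processed pseudogene Gm13456 took 4.20% to 8.93% of the counts of both genes over all 18 libraries.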
